A study of Mus musculus with 6 samples.

Results

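The 10 genes described here mark lymphocytes: Cd3e, Cd3g, Cd2, Lck, Themis and Cd8b1 are T cell genes, Nkg7 and Gzma are genes of natural killer (NK) and cytotoxic T cells, and Cd79a and Cd79b are B cell genes. They were chosen by gene symbol from 22183 symbols in the deposited count table, and all 10 had an entry. RNA came from 6 mouse livers with the genotype label BucheKI/KI-Hep, a knock-in that the series describes as raising butyrylcholinesterase (Buche, gene symbol Bche) in hepatocytes. All 6 livers had received DDC, in liver work the usual abbreviation for a compound that injures bile ducts and brings in inflammatory cells. The libraries fell into 3 DOX livers and 3 PBS (phosphate-buffered saline) livers, so genotype and DDC were shared and the label DOX or PBS was the only labelled difference. DOX usually stands for doxycycline, which controls engineered genes in many mouse lines, but the labels explain neither it nor the prefix S2W. Age, sex, duration and the element that drives the knock-in are not stated in the labels. Nor is it stated that samples were separate animals, so the p-values refer to the spread among these libraries, part of which may be technical.

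The T cell receptor recognises antigen but signals only through the CD3 chains, among them those encoded by Cd3e and Cd3g, whose tails are phosphorylated by the kinase Lck. The B cell receptor has the same plan, with the proteins of Cd79a and Cd79b as its signalling pair. Nkg7 and Gzma belong to cytotoxic granules. In injured liver these cells are a minority among hepatocytes, macrophages and duct cells, and their transcripts in whole tissue RNA are scarce. In such bulk RNA, fewer cells of a type and less RNA per cell cannot be told apart.

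Total counts were 32476725 to 40298256 in the DOX libraries and 40592030 to 41921404 in the PBS libraries. Mitochondrially encoded genes took 5.11 to 6.81% of counts in DOX and 3.45 to 4.58% in PBS livers. The 9 hepatocyte genes of the list used here, headed by albumin, summed to 98700 to 122000 CPM in DOX and 93600 to 100000 CPM in PBS livers, which fits the tissue label. CPM are counts brought to a common depth with TMM factors, which correct for library composition. The 10 lymphocyte genes together gave only 94 to 193 counts in a DOX library and 673 to 908 counts in a PBS library.

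Promoter sequences stand here for Themis, which fell most, for Lck, whose estimate was smaller, and for Gzma, the member whose estimate was above 0. RefSeq (GRCm38.p6) had a promoter entry for 7 of the 10 genes. Each sequence covers the 250 bases before the start given in the entry, 5′ to 3′ on the gene's strand, at chr10:28668110-28668359 (plus) for Themis, chr4:129573642-129573891 (minus) for the upstream start of Lck, and chr13:113100982-113101231 (minus) for Gzma. Capitals mark AGGAAGT, a core of ETS factor sites, and TGTGGT, a core of RUNX factor sites, on either strand; these motifs share no bases in the sequences shown.
Themis: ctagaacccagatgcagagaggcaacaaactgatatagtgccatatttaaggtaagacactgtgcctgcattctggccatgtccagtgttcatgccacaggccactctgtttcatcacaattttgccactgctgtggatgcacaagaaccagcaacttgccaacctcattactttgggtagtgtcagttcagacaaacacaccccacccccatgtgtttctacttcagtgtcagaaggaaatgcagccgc
Lck: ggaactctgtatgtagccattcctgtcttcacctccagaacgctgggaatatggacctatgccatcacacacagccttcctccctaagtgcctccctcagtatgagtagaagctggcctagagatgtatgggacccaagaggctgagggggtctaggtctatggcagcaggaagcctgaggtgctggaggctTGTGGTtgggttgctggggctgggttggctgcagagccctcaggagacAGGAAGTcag
Gzma: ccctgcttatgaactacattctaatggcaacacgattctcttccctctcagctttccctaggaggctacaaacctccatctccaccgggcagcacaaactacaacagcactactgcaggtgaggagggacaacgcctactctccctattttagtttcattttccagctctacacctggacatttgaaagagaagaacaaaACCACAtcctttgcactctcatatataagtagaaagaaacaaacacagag
The ETS letters occurred for 3 of the 7 genes with an entry, Cd3e, Lck and Cd79a, and in 7.69% of all 32851 promoter windows of this length. The RUNX letters occurred for 3 of the 7, Nkg7, Lck and Gzma, and in 14.0% of all windows. Neither string was found in either Themis window. Themis and Lck have 2 windows each, and a gene counted if any of its windows matched. The shares of all promoters are per window, so genes and windows are unlike units here. A match describes letters, not binding.

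Lymphocyte transcripts were mostly lower in DOX livers than in PBS livers, and Themis had the largest estimated fall. Themis averaged 0.769 ± 0.765 CPM in DOX and 10.6 ± 2.81 CPM in PBS livers (SD, n = 3 each), a 13.7-fold difference. The other 9 genes summed to 3.65 ± 0.827 CPM in DOX and 7.07 ± 1.5 CPM in PBS livers, a 1.94-fold difference. Gzma was the exception, with overlapping groups and an estimate above 0. Of the 9 genes with enough counts to test, Themis, Nkg7, Cd8b1 and Cd79b fell, and the other 5 did not pass.

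That count of 4 stands beside 14.0% of all 14681 tested genes called lower and 13.5% called higher (edgeR's quasi-likelihood test, Benjamini-Hochberg adjusted p under 0.05). All DOX libraries lay below all PBS libraries for 7 of the 9, against 22.3% of all tested genes. The median log2 fold change was -1.20 over the 9, against -0.006 over all tested genes. These counts cannot be read as support, since Cd8b1 passed the filter on low counts only through its PBS libraries, and Cd79a did not pass. The filter asked for 3 libraries at its cutoff. Nkg7, Cd3e, Cd3g, Cd2 and Gzma reached it in 2 DOX libraries each, so they too needed PBS libraries to pass. The number of the 10 genes that fell was 1 without PBS 1, and 2 without PBS 2, PBS 3, DOX 1, DOX 2 or DOX 3; Themis was called in each of these. Scaled by library size alone, 5 fell, but there the median of all tested genes also moved to -0.163, with 1028 genes higher and 3429 lower against 1975 and 2062 under TMM.

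**Figure D1:**
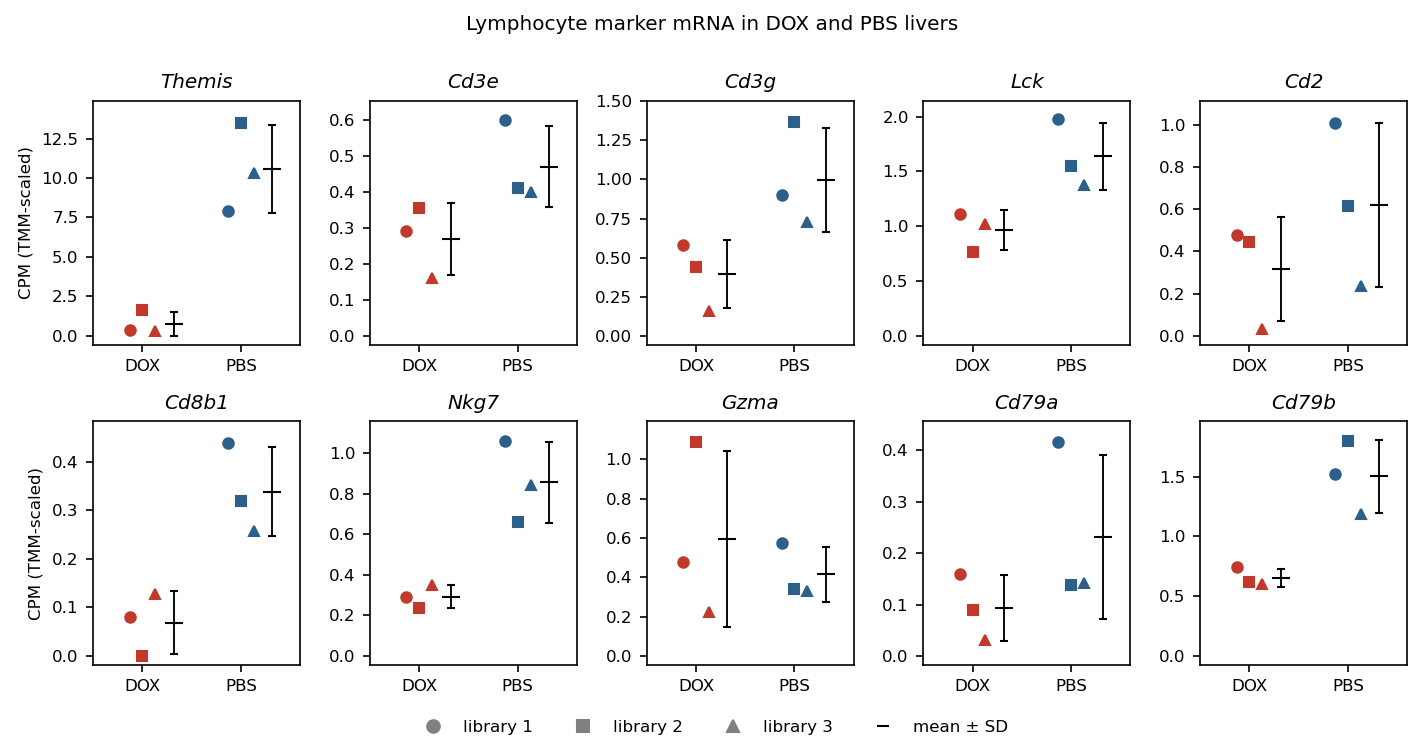
TMM-scaled CPM of the 10 genes in each library, DOX left and PBS right, each panel with its own axis; points are libraries, and dashes with bars are the mean ± SD of 3 libraries. The groups are apart for Themis, Cd3e, Cd3g, Lck, Cd8b1, Nkg7 and Cd79b, and overlap for Cd2, Gzma and Cd79a.

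Themis encodes an adaptor of T cell receptor signalling that developing T cells need, and was named for its part in thymocyte selection. Its raw counts were 14, 56 and 9 in DOX 1 to 3, against 344, 592 and 438 in PBS 1 to 3. The groups were far apart, and DOX 2 stood above the other DOX libraries. The log2 fold change was -3.78 (SE 0.58; edgeR adjusted p = 0.00499), and it ran from -4.97 to -1.39 over the alternatives, the smallest on log2(FPKM + 1). Against counting variance its libraries varied most of the 10 genes, by 25.9 times in DOX and 32.5 times in PBS. Relative to the mean they did not vary most in PBS livers. There the SD was 2.81 on a mean of 10.6 CPM for Themis, and 0.39 on 0.621 CPM for Cd2. The gene lies on chromosome 10 at 28668360 to 28883820 (GRCm38.p6), overlapped on the other strand by 2 pseudogenes of the GENCODE annotation, neither with an entry in the table. Whether counting used strand is not stated in the labels.

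Themis did not keep step with 4 other T cell genes, Cd3e, Cd3g, Cd2 and Lck. Cd8b1, with few counts, is not part of the ratios below. The 95% counting intervals of DOX over PBS overlapped, at 0.0569 to 0.0908 for Themis and 0.0761 to 0.448 for Cd8b1. For each count of Cd3e, Cd3g, Cd2 and Lck together there were 0.151, 0.824 and 0.209 Themis counts in DOX 1 to 3, against 1.76, 3.42 and 3.74 in PBS 1 to 3. Every DOX ratio was below every PBS ratio, although the 4 T cell genes summed were themselves lower, at 1.94 ± 0.55 CPM in DOX and 3.73 ± 0.896 CPM in PBS livers. Per length, the same ratio of FPKM was 0.0391 to 0.209 in DOX and 0.46 to 1.01 in PBS livers. Themis made up 8.09 to 29.0% of the 10 genes' counts in DOX livers and 48.2 to 65.2% in PBS livers. As a T cell marker Themis therefore did not follow Cd3e, Cd3g, Cd2 and Lck in these libraries, and its values are given apart from theirs.

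**Figure D2:**
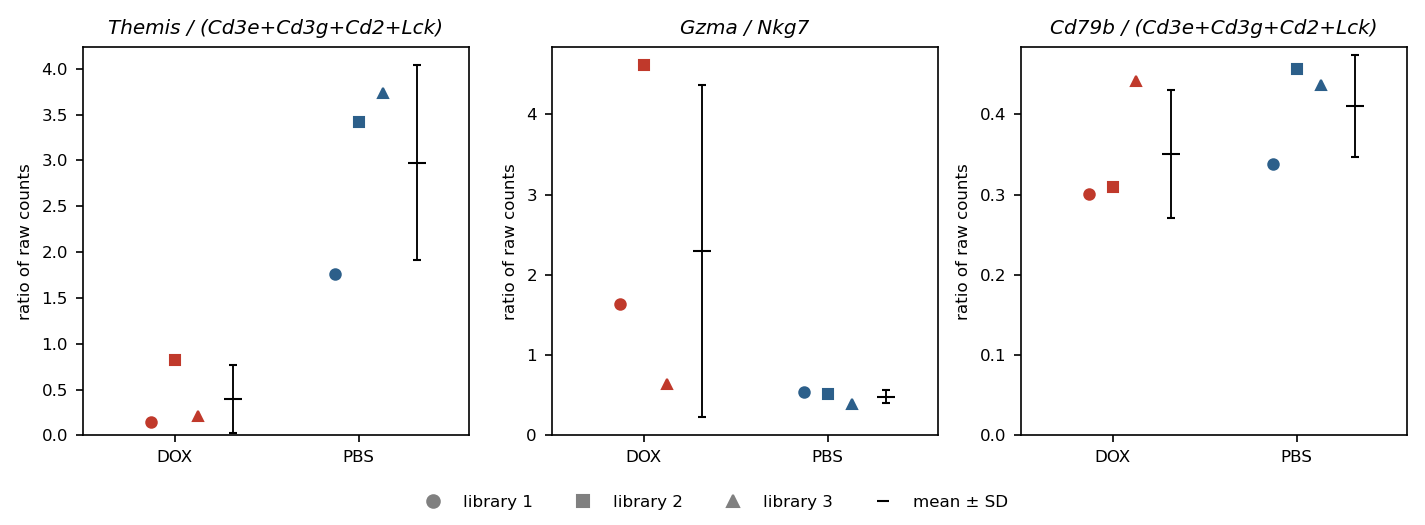
Ratios of raw counts within each library, DOX left and PBS right, with points for libraries and dashes with bars for the mean ± SD of 3. Themis per T cell gene count is at most 0.824 in DOX and at least 1.76 in PBS, Gzma per Nkg7 count is highest in DOX 2 at 4.62, and Cd79b per T cell gene count overlaps between the groups.

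The CD3 genes, Lck and Cd2 had log2 fold changes of -1.31 to -0.76, and did not pass the test. Cd3e, whose product pairs with the other CD3 chains at the T cell receptor, had 11, 12 and 5 counts in DOX 1 to 3, against 26, 18 and 17 in PBS 1 to 3. Cd3g, encoding another CD3 chain, had 22, 15 and 5 counts in DOX livers, against 39, 60 and 31 in PBS livers. Both genes had groups that did not overlap in CPM, and DOX 3 was the lowest library for each. The log2 fold changes were -0.79 for Cd3e (SE 0.49, adjusted p = 0.253) and -1.31 for Cd3g (SE 0.49, edgeR adjusted p = 0.0636). Cd3g passed with DESeq2 (adjusted p = 0.0446), without the filter (0.0386), by library size alone (0.0385) and with limma on log2(FPKM + 1) or log2(FPKM + 0.1), and its adjusted p spanned 0.0253 to 0.225. Both lie on chromosome 9, Cd3g at 44969572 to 44980431 and Cd3e at 44998735 to 45009663, with Cd3d between them.

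Lck, the kinase that starts T cell receptor signalling, was the best covered of these genes, with 42, 26 and 32 counts in DOX livers, against 86, 68 and 59 in PBS livers. Every DOX library was below every PBS library. Lck had a log2 fold change of -0.76 (SE 0.32, adjusted p = 0.0937), which passed only with limma on log2(FPKM + 1) or log2(FPKM + 0.1) among the alternatives (0.0219 to 0.271). Cd2, an adhesion receptor of T and NK cells, had 18, 15 and 1 counts in DOX livers, against 44, 27 and 10 in PBS livers. Its groups overlapped, since PBS 3 lay below DOX 1 and DOX 2, and library 3 was the lowest of each group. The log2 fold change of Cd2 was -0.94 (SE 0.71, adjusted p = 0.353). Group sums of Cd2 gave 34 and 81 counts, a DOX over PBS ratio of 0.528 with a 95% counting interval of 0.343 to 0.798 that leaves out the spread between libraries.

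Cd8b1 encodes the beta chain of the CD8 co-receptor of cytotoxic T cells. It had 3, 0 and 4 counts in DOX livers, against 19, 14 and 11 in PBS livers, and the groups did not overlap. For the count of 0 in DOX 2 the floor used was 3 counts, or 0.0884 CPM, and its exact 95% counting interval reached 3.69 counts. Cd8b1 gave a log2 fold change of -2.26 (SE 0.75, adjusted p = 0.0433), and the 95% counting interval of the DOX over PBS ratio, 0.20, was 0.0761 to 0.448. The call was lost with DESeq2 (adjusted p = 0.0511), with the replicate number as a block (0.0666) and when any 1 library was left out (0.0574 without DOX 3, 0.0693 without PBS 3, 0.0939 without PBS 2, 0.0942 without DOX 2, 0.105 without DOX 1 and 0.13 without PBS 1), and the adjusted p spanned 0.011 to 0.13. Cd8a, its neighbour on chromosome 6 and the gene for the partner chain, had 16, 19 and 1 counts in DOX livers, against 49, 44 and 28 in PBS livers, with a log2 fold change of -1.43 (SE 0.61, adjusted p = 0.102).

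The granule genes of NK and cytotoxic T cells gave unlike values. Nkg7, a granule membrane protein, had 11, 8 and 11 counts in DOX livers, against 46, 29 and 36 in PBS livers. The groups were well apart, and the DOX libraries differed by less than counting error (dispersion 0.362 of the counting variance). Its log2 fold change was -1.54 (SE 0.43, edgeR adjusted p = 0.0203). The call was lost without PBS 1 (0.0813), DOX 1 (0.0654), PBS 3 (0.0524) or DOX 2 (0.0512), and the adjusted p of Nkg7 spanned 0.00347 to 0.0813. Gzma, the granule protease granzyme A, had 18, 37 and 7 counts in DOX livers, against 25, 15 and 14 in PBS livers. The DOX libraries held both the highest and the lowest Gzma level of all 6. Its log2 fold change was 0.52 (SE 0.56, adjusted p = 0.523), and it ran from -0.22 (without DOX 2) to 0.90 over the alternatives. For each Nkg7 count there were 1.64, 4.62 and 0.636 Gzma counts in DOX 1 to 3, and 0.543, 0.517 and 0.389 in PBS 1 to 3. Each DOX ratio was above each PBS ratio, and the highest, in DOX 2, rests on 8 Nkg7 counts.

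Of the B cell receptor pair, Cd79b fell and Cd79a was too low to test. Cd79b had 28, 21 and 19 counts in DOX livers, against 66, 79 and 51 in PBS livers. The DOX libraries lay close together and below every PBS library. Cd79b gave a log2 fold change of -1.20 (SE 0.34, adjusted p = 0.0226), and the call was lost without PBS 2 (0.0919), DOX 3 (0.0602) or PBS 1 (0.0596); the adjusted p spanned 0.00489 to 0.0919. Cd79a, the partner chain, had 6, 3 and 1 counts in DOX livers, against 18, 6 and 6 in PBS livers, and fell under the filter. Its groups overlapped in CPM, and PBS 1 held most of the PBS counts. Without the filter its log2 fold change was -1.26 (SE 0.844, adjusted p = 0.341), and its DOX over PBS ratio of 0.42 had a 95% counting interval of 0.183 to 0.882. For each count of the 4 T cell genes there were 0.301 to 0.442 Cd79b counts in DOX and 0.338 to 0.457 in PBS livers, so the balance of this B cell gene with the T cell genes overlapped between the groups.

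**Figure D3:**
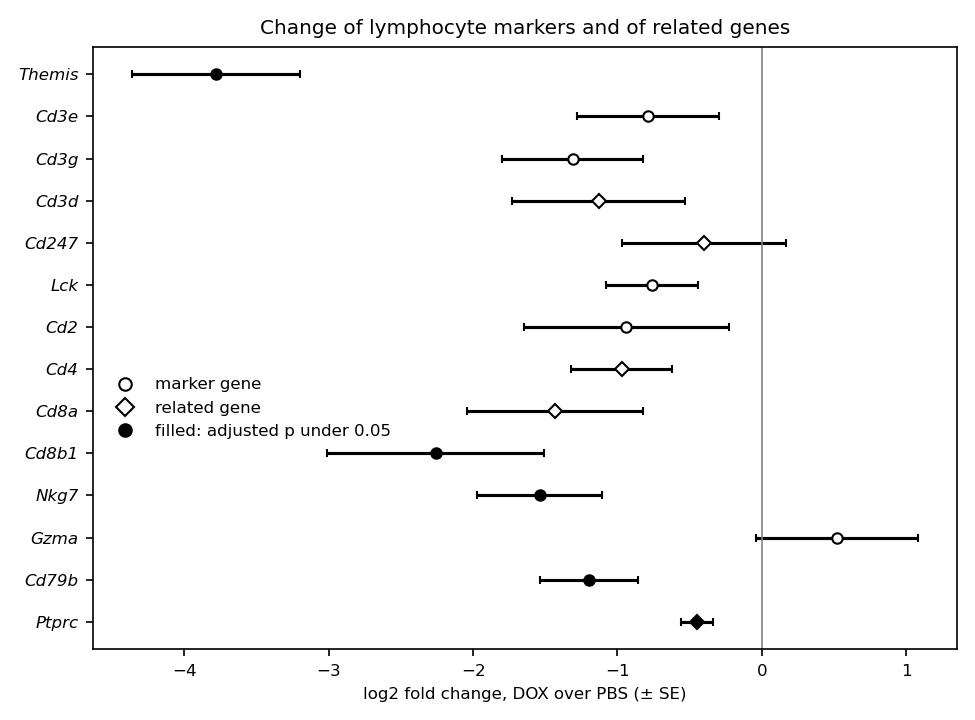
Log2 fold change, DOX over PBS, with its SE from edgeR's quasi-likelihood fit, for the 9 tested lymphocyte genes (circles) and for receptor complex genes and Ptprc (diamonds); filled symbols passed an adjusted p of 0.05. Themis lies farthest left at -3.78, Gzma is the 1 point above 0, and Ptprc, at -0.45, has the shortest error bar.

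Compared per length, as FPKM, the order of the genes differed between the groups. In DOX livers the highest was Gzma at 0.635 ± 0.468 FPKM, followed by Cd79b at 0.503 ± 0.0534 and Lck at 0.402 ± 0.0769 (SD, n = 3). Themis, at 0.127 ± 0.125 FPKM, was the eighth, above Cd79a and Cd8b1. In PBS livers Themis was the highest at 1.96 ± 0.548 FPKM, followed by Cd79b at 1.30 ± 0.297 and Nkg7 at 1.11 ± 0.261. Cd8b1 was the lowest in both groups, at 0.0445 ± 0.0419 FPKM in DOX and 0.242 ± 0.0698 FPKM in PBS livers. Within each group, neighbours in the order overlapped within 1 SD.

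Libraries of a group also differed in most of the 10 genes at once. DOX 3 was the lowest DOX library for 7 of the 10, and DOX 1 the highest for 5. PBS 3 was the lowest PBS library for 7, and PBS 1 the highest for 7. Cd2 and Gzma in DOX livers varied by 6.13 and 11 times the counting variance, whereas Nkg7, Cd79b, Lck and Cd3e were within 0.308 to 1.19 times it. Cd2 in PBS livers reached 10.5 times.

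Other lymphocyte genes were read from lists by role. Of 13 genes of the T cell receptor complex and its co-receptors 7 had an entry, since the receptor's constant segments did not, and all 7 were tested. Cd8b1 fell and the other 6 did not pass, so 14.3% were called lower, near the 14.0% of all tested genes, with a list median of -1.13 on the log2 scale against -0.006 over all tested genes. Without DOX 2, DOX 3 or any 1 PBS library none of the 7 was called by edgeR, where 4 had an unadjusted p under 0.05 with all libraries and DESeq2 called 2. The 7 genes summed to 1.37 to 3.12 CPM in DOX and 4.12 to 6.1 CPM in PBS livers. Cd4, the co-receptor of helper T cells, had 35, 25 and 18 counts in DOX livers, against 79, 50 and 62 in PBS livers, with a log2 fold change of -0.97 (SE 0.35, adjusted p = 0.0588). Cd3d, a further CD3 chain, had a log2 fold change of -1.13 (adjusted p = 0.181), and Cd247, the zeta chain, one of -0.40 (adjusted p = 0.64).

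Of 32 T cell signalling and surface genes, 23 were tested, 4 fell (Themis, Thy1, Lcp2 and Fyb) and the other 19 did not pass, with a median of -0.76. The share called lower, 17.4%, was near the 14.0% of all tested genes. One member rose without PBS 1. The 32 genes summed to 52.2 to 57.2 CPM in DOX and 81.2 to 85 CPM in PBS livers. Thy1, a T cell surface protein that fibroblasts also make, averaged 2.10 ± 0.387 CPM in DOX and 4.67 ± 1.27 CPM in PBS livers (SD, n = 3; log2 fold change -1.15, adjusted p = 0.00726). Stellate and fibroblast genes moved with it: 6 of 10 fell, Thy1 included, or 60.0% beside 14.0% of all tested genes. Their sum was 483 to 758 CPM in DOX and 1160 to 1490 CPM in PBS livers. Lcp2 and Fyb, adaptors used by T cells and by myeloid cells, fell with log2 fold changes of -0.53 and -0.45. Of 13 T cell transcription factors 11 were tested and none was called by edgeR, with 2 at an unadjusted p under 0.05 and 0 called by DESeq2. The smallest p belonged to Runx3 (log2 fold change -0.76, adjusted p = 0.0678) and Tbx21 (-1.21, adjusted p = 0.111). The 13 factors summed to 111 to 144 CPM in DOX and 126 to 148 CPM in PBS livers, and these sums overlapped.

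Of 32 NK and cytotoxic genes, 14 were tested, 3 fell and the other 11 did not pass, with a median of -1.10. The share called lower was 21.4%, beside 14.0% of all tested genes. The 3 were Nkg7, Klrk1, an activating receptor of NK and CD8 T cells, and Cd7. Without PBS 1 only 1 of the list fell. The 31 genes with an entry summed to 80.9 to 109 CPM in DOX and 78.5 to 101 CPM in PBS livers. These sums overlapped and were not lower in DOX livers. Cd7, a surface protein of T and NK cells, had 9, 2 and 0 counts in DOX livers, against 54, 45 and 42 in PBS livers (log2 fold change -3.34, SE 0.66, adjusted p = 0.00443), the nearest of these lists to Themis in size. Like Cd8b1, it passed the filter only through PBS libraries. Klrk1 had 25, 17 and 9 counts in DOX livers, against 54, 64 and 51 in PBS livers, with a log2 fold change of -1.41 (adjusted p = 0.0208) that did not pass without PBS 2 (0.0728), DOX 3 (0.065) or PBS 1 (0.0513); it spanned 0.00601 to 0.0728.

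Of 35 B and plasma cell genes, 29 had an entry and 12 were tested, since most of this list was under the filter. The 5 that fell were Cd79b, Bank1, Cd22, Cd72 and Blnk, the other 7 did not pass, and the median was -0.78. The share called lower was 41.7%, beside 14.0% of all tested genes. Without PBS 3 only 3 fell, and 1 member rose without DOX 2. The 29 genes with an entry summed to 55.1 to 59.3 CPM in DOX and 79 to 82.8 CPM in PBS livers. Bank1, a B cell scaffold protein, had 24, 31 and 22 counts in DOX livers, against 103, 81 and 74 in PBS livers (log2 fold change -1.40, SE 0.31, adjusted p = 0.00764). Cd22, Cd72 and Blnk, of which Blnk is the adaptor below the B cell receptor, fell with log2 fold changes of -0.78, -0.79 and -0.79. In PBS 1 to 3, Cd22 had 225, 223 and 268 counts, Cd72 246, 261 and 272, and Blnk 413, 387 and 346. Cd79b had 66, 79 and 51 there. Which cells gave the transcripts of Cd22, Cd72 and Blnk was not tested, so the share called need not describe B cells alone. Cd22 and Cd72 just missed without PBS 3 (adjusted p 0.0502 and 0.0505), and Blnk without DOX 1 (0.0564); over the alternatives the 3 ranged up to these values from 0.00145, 0.0021 and 0.000866. The 17 B and plasma cell genes under the filter had few counts. Fitted without the filter, 14 had an estimate below 0, of which 4 passed, and 3 had one above 0, Ebf1, Mzb1 and Vpreb3. Pax5 had 0 counts in each DOX liver, against 6, 6 and 2 in PBS livers, and Ms4a1 had 2, 0 and 0 counts in DOX livers, against 12, 5 and 2 in PBS livers. Fcmr had 0 counts in each DOX liver, against 6, 12 and 10 in PBS livers. Ebf1, a B lineage transcription factor that stromal cells also express, went the other way, with 23, 7 and 13 counts in DOX livers, against 4, 7 and 3 in PBS livers (log2 fold change 1.89, adjusted p = 0.0526 without the filter). Genes under the filter were named after their values were seen.

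**Figure D4:**
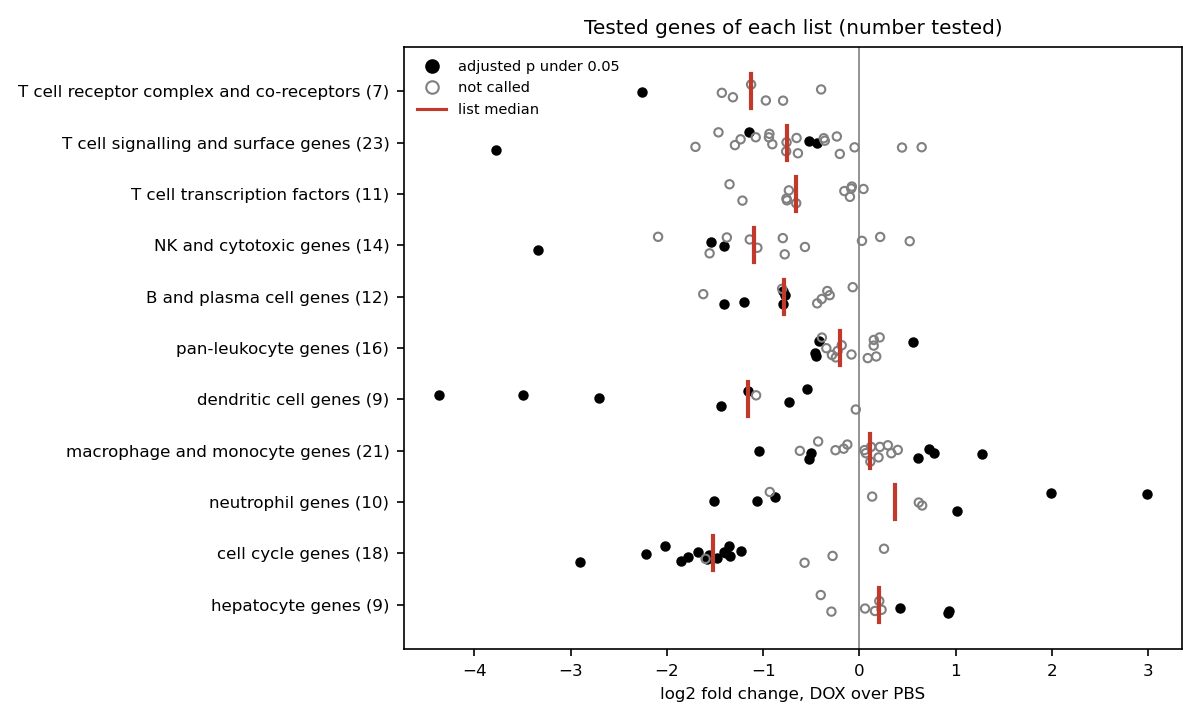
Log2 fold change, DOX over PBS, of every tested gene in 11 lists, with the number tested in brackets; filled points passed an adjusted p of 0.05 in edgeR's quasi-likelihood test, and red lines are list medians. The 5 lymphocyte lists have medians of -1.13 to -0.66, the pan-leukocyte list lies at -0.21, and the macrophage and neutrophil lists lie above 0.

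Genes of other cells moved beside the lymphocyte genes, and their part in these results was not tested. Of all tested genes, 14.0% were called lower and 13.5% higher. The shares called lower were 77.8% of dendritic cell, 77.8% of cell cycle and 30.0% of neutrophil genes. Those of pan-leukocyte genes, 18.8%, and of macrophage and monocyte genes, 14.3%, were near that of all tested genes. Ptprc (CD45), carried by all leukocytes, averaged 25.7 ± 0.974 CPM in DOX and 35.2 ± 3.21 CPM in PBS livers (SD, n = 3), with a log2 fold change of -0.45 (SE 0.11, adjusted p = 0.0101). Per 100 Ptprc counts there were 9.62, 7.50 and 5.51 counts of the 4 T cell genes in DOX 1 to 3, against 11.9, 10.9 and 8.69 in PBS 1 to 3, so these ratios overlapped. Over 16 pan-leukocyte genes 3 fell and 1 rose, with a summed level of 657 to 698 CPM in DOX and 704 to 731 CPM in PBS livers. Of 9 tested dendritic cell genes 7 fell, with a sum of 101 to 127 CPM in DOX and 183 to 201 CPM in PBS livers. Xcr1, a receptor of cross-presenting dendritic cells, had 2, 3 and 0 counts in DOX livers, against 34, 13 and 28 in PBS livers (log2 fold change -3.50, edgeR adjusted p = 0.00651). Like Cd8b1, it passed the filter only through PBS libraries, and it was named after its values were seen. Macrophage and monocyte genes did not go one way, with 3 of 21 lower and 4 higher and sums of 3780 to 4500 CPM in DOX and 3690 to 4070 CPM in PBS livers. Neutrophil genes likewise split, with 3 of 10 lower and 3 higher. Of 18 cell cycle genes 14 fell, with sums of 96.3 to 104 CPM in DOX and 165 to 272 CPM in PBS livers.

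The tested genes whose profile over the 6 libraries was most like the mean log2 CPM of the 9 tested lymphocyte genes were Sptlc2, Ehbp1l1, Traf1, Nusap1 and Vasp, out of 12218 genes with at least 1 CPM on average. Pearson's r was 0.994 to 0.997 over 6 libraries that share the DOX and PBS split, so these values describe that split together with the order of libraries in each group. Traf1, a signalling adaptor of TNF receptors, stood at 0.767, 0.884 and 0.603 CPM in DOX livers, against 1.61, 1.37 and 1.19 CPM in PBS livers. Nusap1, a spindle protein of dividing cells, stood at 0.90, 0.914 and 0.603 CPM, against 2.81, 2.40 and 1.92 CPM in PBS livers. Nusap1 passed (edgeR adjusted p = 0.00426) and Traf1 did not (0.0709). In both genes library 3 was the lowest of its group, as it was for most of the 10 lymphocyte genes. Since both were picked for likeness to the mean of those genes, a shared order was set by the choice.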

How the data were processed

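Per the labels' protocols, liver RNA was purified with an RNeasy kit and made into SMARTER mRNA-seq libraries. The authors deposited whole-number counts per gene symbol for 6 libraries, not normalized, and a table of FPKM values that equals those counts divided by a fixed gene length and the library total. The submitters' processing notes name the builds GRCm38, mm10 and hg38 without saying what each was used for; of the aligner, the counting program and its handling of strand and shared reads, nothing is given in the sources used here. Columns were matched to samples by title.

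Single genes were tested with edgeR 4.0.16 in R 4.3.3 by its robust quasi-likelihood method, on the deposited counts of all 6 libraries, DOX over PBS, with group as the only term, TMM scaling and filterByExpr (minimum count 10, minimum total 15), which left 14681 genes. P-values were adjusted by Benjamini-Hochberg over those genes, and SE is the log2 fold change divided by the root of its F statistic. All adjusted p-values come from this fit unless another is named. Alternatives were RLE factors, library size alone, no filter, DESeq2 1.42.0, limma 3.58.1 on log2(FPKM + 1) and log2(FPKM + 0.1), no robust estimation, a replicate block, and each library left out. Ratios of summed counts have exact 95% intervals, which, like floors of 3 counts, cover counting error only and ignore PCR duplicates. Dispersion is the variance between 3 libraries over that expected from counting. At an equal spread relative to the mean, it grows with the count.

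The 10 genes and all lists were chosen with earlier results of these data known. Named genes were the 10, the receptor complex list, up to 4 called genes per direction of each other lymphocyte list (2 of smallest p where none was called), Ptprc, and the 5 genes most alike in profile. Pax5, Ms4a1, Fcmr, Ebf1, Mzb1, Vpreb3 and Xcr1 fall outside this rule, having been picked with their values known.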

Additional observations from a re-analysis of the deposited data

How the results depend on the processing

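Over 14 alternatives for each of the 9 tested genes, 103 of 126 values kept direction and call, 15 lost the call, 7 gained it, and 1 uncalled value, Gzma without DOX 2, changed direction. Themis kept its call in all 14. The number of the 10 genes that fell was 5 by library size alone or without the filter, 6 with limma on either FPKM scale, 4 with DESeq2, 3 with the replicate block, and 1 to 2 when single libraries were left out; 0 rose in any of these. For the T cell receptor complex the number that fell was 2 with DESeq2, 3 by library size alone and without the filter, 4 with limma on either FPKM scale, 0 with the replicate block and 0 to 1 without single libraries. For T cell signalling genes 8 fell by library size alone, 10 with limma on either scale and 4 to 6 without single libraries, while 1 rose with DESeq2 and without the filter, and 0 to 1 without single libraries. Among T cell transcription factors 1 fell by library size alone and with limma on log2(FPKM + 1), 2 with limma on log2(FPKM + 0.1), and 0 to 1 without single libraries. For NK and cytotoxic genes the number that fell was 5 without the filter and with the replicate block, 8 with limma on either scale and 1 to 4 without single libraries. For B and plasma cell genes it was 10 without the filter and 3 to 6 without single libraries, and 0 to 1 rose. Over all genes, 3429 fell and 1028 rose by library size alone, 3151 and 893 with limma on log2(FPKM + 1), 3188 and 936 with limma on log2(FPKM + 0.1), and 1305 to 2348 fell and 1208 to 2440 rose without single libraries. The FPKM values carry no composition factor; the cause of the counts that moved was not tested. Libraries with the same number did not deviate together (r of 0.119, -0.107 and -0.158 for numbers 1 to 3 over all tested genes), so the numbers were not read as pairs. Precision was limited by low counts, with 62 or fewer over the 3 DOX libraries for 7 of the 10 genes, and by spread between libraries, which exceeded counting variance 25.9 and 32.5 times for Themis and 6.13 and 10.5 times for Cd2 (DOX and PBS).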
